A study of Mus musculus with 9 samples.

Results

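Shared peaks between genes are stretches of open chromatin that lie away from protein-coding genes and overlap the peak list deposited for each condition of the study. The list for cells labelled with both Esrrb and Nanog carries another group's peak names, as described below. These shared peaks numbered 33256 of the 157497 regions counted by ATAC-seq, an assay in which the Tn5 transposase cuts and tags accessible DNA. A region was taken when it lay on chromosomes 1 to 19 or X, overlapped an interval of all 3 deposited peak lists by at least 1 bp, and lay more than 1 kb outside every protein-coding gene of the RefSeq annotation of GRCm38. Among all 87109 regions with a peak in the 3 lists on those chromosomes, 35262 lay inside genes and 18591 at gene ends. The members were selected on the authors' peak calls, made on the same libraries whose counts are described here, so counts of members that differ between conditions describe a chosen set.

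The cells were mouse embryonic stem (ES) cells, sorted for the surface protein PECAM and against PDGFRA, and grown in 10% serum with leukaemia inhibitory factor (LIF) at 1000 U per ml. NanogKO:Esrrb:Nanog libraries (3, code 44JN) came from the line N{delta}:cE:iN, in cells labelled with both Esrrb and Nanog. NanogKO:Esrrb libraries (3, code 44J) came from the same line, in cells labelled with Esrrb alone. NanogKO libraries (3, code 44C6) came from the line N{delta}, labelled only as lacking Nanog. All 9 libraries thus carry the Nanog knockout. The labels spell out neither cE nor iN and give each group 1 code, so condition and code cannot be told apart. They do not say whether replicates were separate cultures, so p-values measure the spread between libraries, which may be technical.

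Distal accessible regions in ES cells include enhancers, DNA elements that transcription factors bind and that act on a gene's promoter over a distance through chromatin looping, and insulators bound by CTCF. NANOG is a homeobox factor of the pluripotency network, and ESRRB is an orphan nuclear receptor that can sustain self-renewal in cells without NANOG; both bind mostly at such distal sites. The nearest gene names a place below; it was not tested which gene a region acts on. In bulk libraries, a region open in fewer cells and a region less open in each cell cannot be told apart.

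Library totals over the counted regions ran from 35545030 to 58520948 in NanogKO:Esrrb:Nanog, from 49870948 to 58096403 in NanogKO:Esrrb and from 41334847 to 52871542 in NanogKO. Each member was counted at least 8 times in every library, with a median count of 242, so all 33256 entered the test. Levels are CPM, read counts scaled to each library's total after TMM adjustment. The deposited interval list for NanogKO:Esrrb:Nanog carried the peak names of NanogKO:Esrrb replicate 3, as the NanogKO:Esrrb list did, and held 138118 intervals with a median of 179 bp, against 370 bp in the NanogKO:Esrrb list and 342 bp in the NanogKO list. Counts of members are therefore also given for the 39029 regions between genes that the NanogKO and NanogKO:Esrrb lists share, a choice made after the data were seen. All 8 ES cell marker genes had a shared peak within 1 kb, with summed levels of 463 to 519 CPM in NanogKO:Esrrb:Nanog, 400 to 440 in NanogKO:Esrrb and 319 to 338 in NanogKO. All 7 primitive endoderm markers had one too, with 262 to 286 CPM in NanogKO:Esrrb:Nanog, 236 to 274 in NanogKO:Esrrb and 294 to 318 in NanogKO, as had every mesendoderm, neural, trophoblast and fibroblast marker listed, so a peak at a marker gene does not tell these cell types apart. None was at 0, and the part that other cells had in the results was not tested.

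Sequence was at hand for the members that hold the start of a long non-coding RNA (lncRNA) gene: 455 start windows of 300 bases, from 250 before to 50 after the start, lay wholly inside 407 members. The CTCF core, CCANNAG directly followed by NNGGC, was found in 6.37% of these windows and in 2.58% of all 11588 lncRNA start windows. The octamer ATGCAAAT, bound by POU5F1, was found in 3.52% of the member windows against 1.87% of all, and the KLF site CCACACCC in 6.37% against 3.44%. The ESRRB site TCAAGGTCA occurred in 0.440% against 0.587%, SOX2's CATTGTT in 4.84% against 4.75%, AP-1's TGANTCA in 7.69% against 9.31% and GATA's AGATAA in 8.79% against 13.98%. The looser KLF form CCNCNCCC, which contains CCACACCC, matched 50.8% against 36.4%. Both strands were searched, and median GC content was 54.3% in the member windows and 48.3% in all, so base composition moved with the motif shares and its part was not tested.

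The 6 windows printed next are from the members with the largest called rise and fall of each comparison among the 407 that hold such a window, plus the window near Fn1, and 1 window serves 2 comparisons, so that a reader can see what DNA lies under a region that moved. Capitals mark matches to ESRRB, octamer, SOX2, CCACACCC, CTCF, AP-1 and GATA sites, and the bases are RefSeq's for GRCm38.p6, 5′ to 3′ on the strand of the lncRNA. Gm35891 (chr3:51128890-51129189, minus strand) starts in a member near Noct that rose by 2.10 log2 units in NanogKO:Esrrb against NanogKO, and no capital stands in it. Gm31845 (chr16:95668111-95668410, minus strand) starts in a member near Ets2 whose log2 change in that comparison was -1.72, likewise without a match. Gm32796 (chr16:29977820-29978119, plus strand), near the Notch target Hes1, has the KLF site at 2 places, and its member changed by 2.74 log2 units in NanogKO:Esrrb:Nanog against NanogKO and by 1.504 against NanogKO:Esrrb. Gm39294 (chr9:15431938-15432237, plus strand), near Smco4, has 1 GATA site, and its member changed by -2.49 and -1.43 log2 units in the same comparisons. Gm52029 (chr13:47855909-47856208, minus strand) also has 1 GATA site and lies in the member 404824 bp from Id4 described below. Gm39660 (chr1:71741307-71741606, minus strand) has 1 octamer and lies in a member near Fn1, the fibronectin gene, with a log2 change of -1.59 in NanogKO:Esrrb against NanogKO. A match of letters is a description and not a bound site.
Gm35891: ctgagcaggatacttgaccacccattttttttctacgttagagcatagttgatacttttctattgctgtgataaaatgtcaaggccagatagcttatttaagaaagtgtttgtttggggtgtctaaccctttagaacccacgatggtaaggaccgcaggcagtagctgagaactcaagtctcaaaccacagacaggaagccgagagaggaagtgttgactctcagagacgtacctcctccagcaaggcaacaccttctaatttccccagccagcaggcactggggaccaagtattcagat
Gm31845: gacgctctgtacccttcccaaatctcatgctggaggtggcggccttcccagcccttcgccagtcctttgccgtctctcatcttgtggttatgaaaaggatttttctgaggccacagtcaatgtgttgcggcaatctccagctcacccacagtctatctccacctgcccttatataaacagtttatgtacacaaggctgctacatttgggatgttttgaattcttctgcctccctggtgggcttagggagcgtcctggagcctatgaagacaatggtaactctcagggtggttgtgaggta
Gm32796: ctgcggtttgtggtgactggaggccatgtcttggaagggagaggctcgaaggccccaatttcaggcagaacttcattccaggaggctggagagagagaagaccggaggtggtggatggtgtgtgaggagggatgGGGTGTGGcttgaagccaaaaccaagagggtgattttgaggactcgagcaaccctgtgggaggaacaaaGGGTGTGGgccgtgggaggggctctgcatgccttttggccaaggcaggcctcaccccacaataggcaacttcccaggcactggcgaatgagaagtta
Gm39294: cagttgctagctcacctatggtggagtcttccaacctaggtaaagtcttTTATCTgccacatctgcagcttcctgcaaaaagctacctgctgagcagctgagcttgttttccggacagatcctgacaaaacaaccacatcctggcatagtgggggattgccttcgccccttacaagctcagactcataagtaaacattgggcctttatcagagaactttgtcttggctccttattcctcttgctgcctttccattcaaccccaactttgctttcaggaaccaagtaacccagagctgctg
Gm52029: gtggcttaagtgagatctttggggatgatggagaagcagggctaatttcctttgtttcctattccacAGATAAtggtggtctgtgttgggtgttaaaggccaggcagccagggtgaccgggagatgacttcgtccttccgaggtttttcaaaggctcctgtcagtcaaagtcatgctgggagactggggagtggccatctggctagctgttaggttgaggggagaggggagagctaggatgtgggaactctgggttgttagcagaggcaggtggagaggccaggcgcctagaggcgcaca
Gm39660: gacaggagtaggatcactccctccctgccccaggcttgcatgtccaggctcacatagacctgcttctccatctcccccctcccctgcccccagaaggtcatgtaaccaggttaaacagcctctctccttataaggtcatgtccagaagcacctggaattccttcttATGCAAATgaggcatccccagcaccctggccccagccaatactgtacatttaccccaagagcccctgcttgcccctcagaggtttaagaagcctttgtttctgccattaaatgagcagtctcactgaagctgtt

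Accessibility of the shared peaks was lower the farther they lay from a gene. Distances ran from 1001 to 2249679 bp with a median of 23564.5 bp, and the members were split at 10, 50, 100 and 500 kb into groups of 9705, 12787, 4327, 5362 and 1075. At 1 to 10 kb the median member had 13.05, 12.6 and 13.2 CPM per kb of region in the 3 NanogKO:Esrrb:Nanog libraries, 12.9, 12.9 and 12.5 in NanogKO:Esrrb, against 13.4, 12.9 and 12.8 in NanogKO. Beyond 500 kb it had 7.24, 7.05 and 8.999 CPM per kb in NanogKO:Esrrb:Nanog, 8.22, 8.42 and 8.83 in NanogKO:Esrrb, against 8.70, 8.88 and 8.57 in NanogKO. Near genes the libraries of the 3 conditions overlapped, whereas beyond 500 kb NanogKO:Esrrb:Nanog replicates 1 and 2 were below every other library and replicate 3 was above them all. The spread between libraries was also wider far from genes: the median SD of log2 CPM was 0.271 beyond 500 kb and 0.189 at 1 to 10 kb in NanogKO:Esrrb:Nanog, 0.180 and 0.143 in NanogKO:Esrrb, compared with 0.177 and 0.148 in NanogKO. The median count moved with distance too, with 171 beyond 500 kb and 283 at 1 to 10 kb, and its part in the spread was not tested. Members were 461 bp long at the median, against 806 bp for shared peaks at gene ends and 474 bp for those inside genes. An annotated lncRNA gene covered 6291 members (18.9%), and 7430 (22.3%) lay in a gene of any annotated kind.

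**Figure D1:**
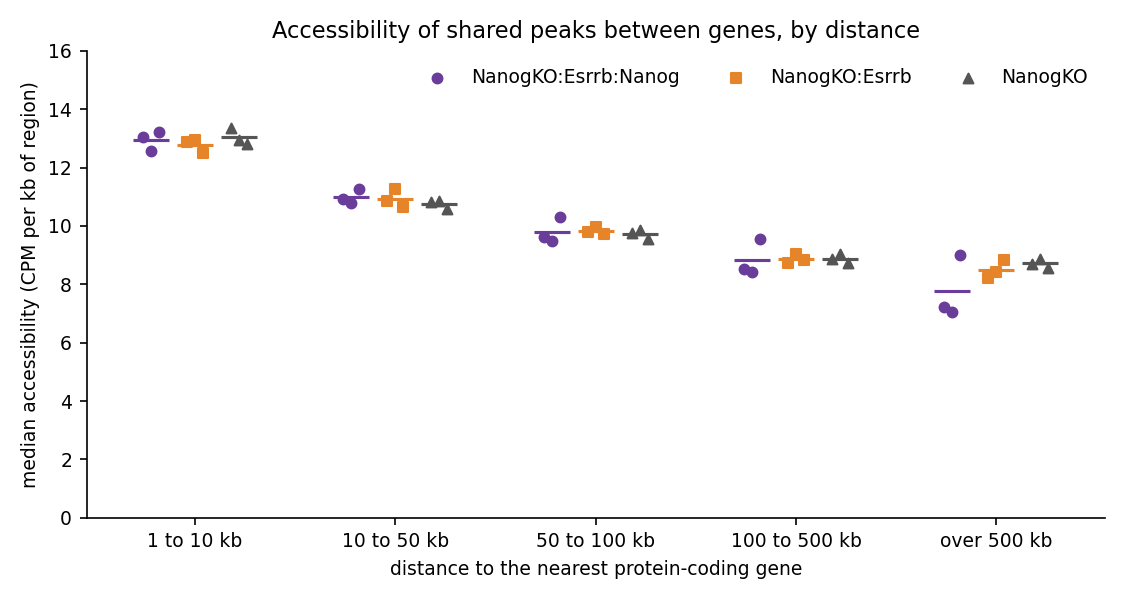
Median accessibility of shared peaks between genes, in CPM per kb of region, against distance to the nearest protein-coding gene; each point is a library and each line the mean of 3 libraries. Levels sit near 13.04 CPM per kb at 1 to 10 kb in NanogKO:Esrrb:Nanog and are lower in every library farther out, and NanogKO:Esrrb:Nanog replicates 1 and 2 are the lowest points beyond 500 kb.

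The share of all counted reads that fell in these regions differed little between conditions. It was 23.2, 23.01 and 24.7% in NanogKO:Esrrb:Nanog, 24.1, 24.97 and 23.9% in NanogKO:Esrrb, against 23.5, 23.5 and 23.2% in NanogKO. All 3 NanogKO:Esrrb libraries were above all 3 NanogKO libraries, by 0.936 percentage points in the mean, and an exact two-sided permutation test of 3 against 3 gave p = 0.1, the smallest it allows (adjusted p = 0.6 over 6 tests). NanogKO:Esrrb:Nanog overlapped both other groups, with p = 1 against NanogKO and p = 0.3 against NanogKO:Esrrb in the same exact test. Of the reads within members, 14.6, 14.8 and 16.2% in NanogKO:Esrrb:Nanog, 15.2, 15.5 and 15.7% in NanogKO:Esrrb, against 15.4, 15.9 and 15.3% in NanogKO fell more than 100 kb from a gene, with exact p between 0.6 and 0.8 in the 3 comparisons. Without NanogKO:Esrrb:Nanog replicate 3 the first share was lower in NanogKO:Esrrb:Nanog than in NanogKO, by a difference of -0.297 points, against 0.220 points with it.

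The members called in each comparison are given first as counts beside those of all regions. For NanogKO:Esrrb:Nanog against NanogKO, 8212 members were called higher and 7987 lower by edgeR's quasi-likelihood test at adjusted p under 0.05, which is 48.7% of members, beside 49.3% of all regions tested. The shares by direction were 24.7% and 24%, beside 24.9% and 24.4% of all regions, and the members' median log2 fold change of -0.03 stood beside -0.01 over all regions. Past 2-fold, 2815 members were called higher and 1681 lower, 8.46% and 5.05%, beside 11.3% and 11% of all regions. The balance turned on how a shared peak is defined: the 2 lists whose names fit their group gave 8254 regions higher and 11743 lower, and a rule that each list cover at least 50% of a region gave 5920 higher and 2688 lower. Where Nanog was added to Esrrb, in NanogKO:Esrrb:Nanog against NanogKO:Esrrb, 4323 members were called higher and 4043 lower, 25.2% in all, beside 24.6% of all regions. Of all members, 423 were higher and 317 lower past 2-fold (1.27% and 0.953%), beside 1.89% and 3.63% of all regions, and the median was -0.02. The shares by direction were 13% and 12.2%, beside 12.6% and 12%. That split changed with the scaling: with library totals in place of TMM factors, 2879 were higher and 5855 lower, so 32.96% of the called members were higher instead of 51.7%. The 2 lists gave 4334 regions higher and 6812 lower, and at least 50% cover gave 3558 and 1064. Without NanogKO:Esrrb replicate 3 the count called in that comparison was 5546. With Esrrb alone, in NanogKO:Esrrb against NanogKO, 6704 members were called higher and 5086 lower, 35.5% in all, beside 37% of all regions. Of all members, 1698 were higher and 711 lower past 2-fold (5.11% and 2.14%), beside 8.37% and 6.01% of all regions, and the median was -0.02. The shares by direction were 20.2% and 15.3%, beside 20% and 17%, and the 2 lists gave 6956 regions higher and 6188 lower. The rule used peaks of the same libraries, so nothing was read from these shares.

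The regions farthest from genes leaned downward where Nanog was present. Beyond 500 kb, 218 of 1075 members were called higher and 353 lower in NanogKO:Esrrb:Nanog against NanogKO, which is 20.3% higher and 32.8% lower, while at 1 to 10 kb the shares were 21.8% higher and 22.7% lower. Of all regions, 24.9% were higher and 24.4% lower in that comparison. The median log2 fold change beyond 500 kb was -0.20, and at the 4 nearer distances it ran from -0.05 to 0.00. Against NanogKO:Esrrb, the farthest members of NanogKO:Esrrb:Nanog were 8.19% higher and 16.3% lower, with a median of -0.16, and those at 1 to 10 kb were 12.8% higher and 10.8% lower. The shares of all regions there were 12.6% higher and 12% lower. In NanogKO:Esrrb against NanogKO the farthest members were 19.3% higher and 18.4% lower, beside 20% and 17% of all regions, with a median of -0.03. The lean rests partly on single libraries: without NanogKO:Esrrb:Nanog replicate 3 the median beyond 500 kb was -0.32 against NanogKO and -0.27 against NanogKO:Esrrb, and without NanogKO:Esrrb:Nanog replicate 2 it was -0.14 and -0.09. The medians of NanogKO:Esrrb:Nanog against either other group were negative under every alternative fit, from -0.32 to -0.14 against NanogKO. They were not recomputed under other rules for membership, which turned the balance over all members. The difference between distances was not tested. With Esrrb alone against NanogKO the share called higher was lowest next to genes: 16.5% higher and 15.2% lower at 1 to 10 kb, 21.7% higher and 14.6% lower at 10 to 50 kb, 22.6% higher and 15.2% lower at 50 to 100 kb and 21.3% higher and 16.7% lower at 100 to 500 kb. Shared peaks at gene ends had other shares in NanogKO:Esrrb against NanogKO, with 6.41% higher and 13% lower, and with 16.5% higher and 3% lower in NanogKO:Esrrb:Nanog against NanogKO:Esrrb. The lean at gene ends in the second comparison changed with the scaling. Their median log2 fold change there was 0.134, but 0.029 with library totals and 0.021 with a loess offset. Peaks inside genes had 17.4% higher and 15.9% lower in the first comparison and 15.7% higher and 8.23% lower in the second, and the difference from the members was not tested. Regions between genes without a peak in all 3 lists, with a median length of 212 bp, had 8.29% higher and 19.7% lower in NanogKO:Esrrb:Nanog against NanogKO:Esrrb. Against NanogKO, they had 24.4% higher and 33.8% lower in NanogKO:Esrrb:Nanog, so a downward lean was not particular to the farthest members. By chromosome, the members' median log2 fold change stayed between -0.10 on chromosome 19 and 0.05 on chromosome 4 in NanogKO:Esrrb:Nanog against NanogKO, and chromosome X had the lowest share called in all 3 comparisons, 43.8% in that one.

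**Figure D2:**
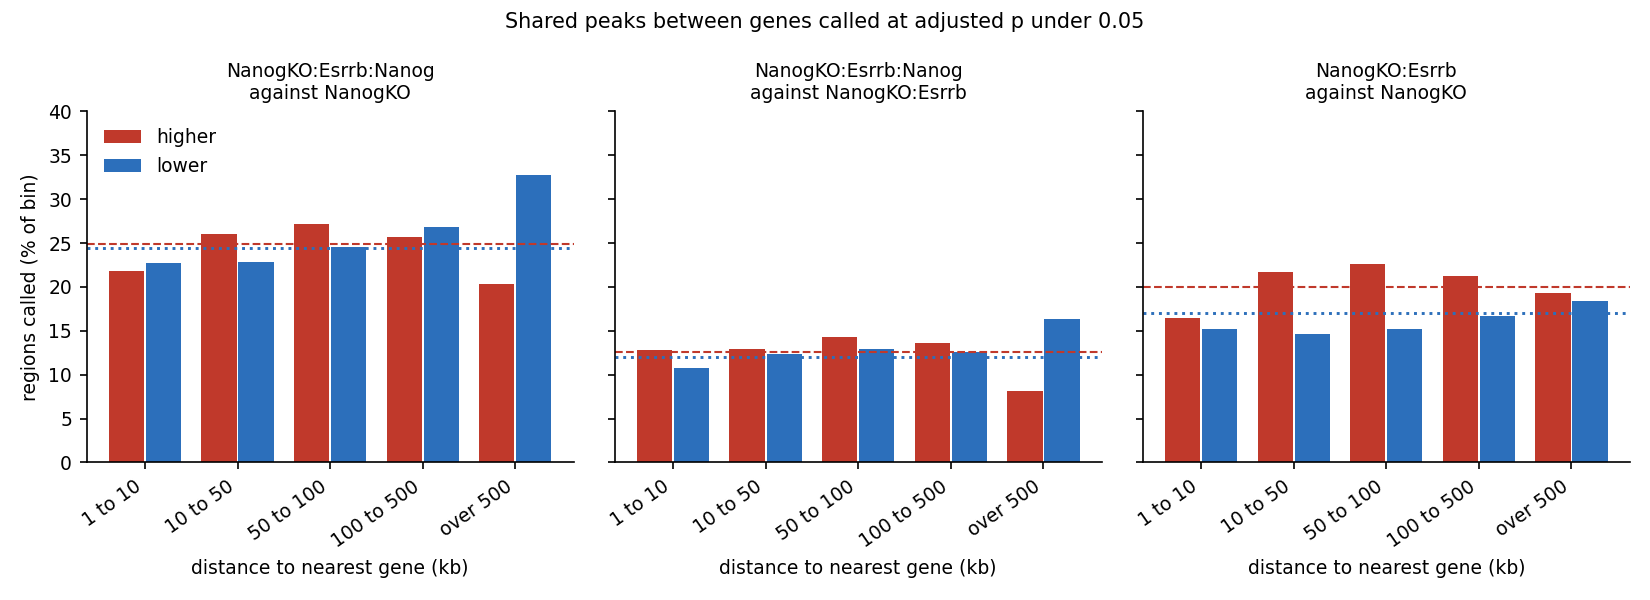
Percent of shared peaks between genes called higher (red) and lower (blue) in each comparison, by distance to the nearest protein-coding gene in kb; the dashed red and dotted blue lines are the percentages over all regions tested. Beyond 500 kb the blue bar reaches 32.8% for NanogKO:Esrrb:Nanog against NanogKO, and the red bar stands at 8.19% for NanogKO:Esrrb:Nanog against NanogKO:Esrrb.

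The regions with the largest differences in NanogKO:Esrrb:Nanog against NanogKO had intermediate levels in NanogKO:Esrrb. They were the member with the largest called rise and fall at each distance, taken from the more abundant members with groups that did not overlap. The separation of NanogKO:Esrrb:Nanog from NanogKO and the small p were therefore required by the choice, for the rises and the falls. The region chr2:116942225-116942803, 49719 bp from Tmco5, had 35.4, 39.3 and 39.2 CPM in NanogKO:Esrrb:Nanog, 15.6, 23.1 and 16.3 in NanogKO:Esrrb, against 4.29, 2.87 and 4.34 in NanogKO. Each group of 3 libraries stood apart from both others, and the log2 change was 3.32 ± 0.16 (SE) against NanogKO (adjusted p = 3.2e-14) and 1.05 ± 0.14 (SE) against NanogKO:Esrrb (adjusted p = 1.3e-05). Near Zc3h12a, which encodes an RNase that degrades cytokine mRNAs, chr4:125136349-125137062 at 8468 bp had 24.7, 24.4 and 22.8 CPM in NanogKO:Esrrb:Nanog, 13.5, 18.4 and 9.99 in NanogKO:Esrrb, against 3.41, 2.28 and 2.49 in NanogKO. All its NanogKO libraries were low and its NanogKO:Esrrb:Nanog libraries the highest, with a log2 change of 3.14 ± 0.18 (SE) (adjusted p = 3.2e-13). Farther out, chr1:186261400-186261847 lay 144090 bp from Lyplal1 and had 19.2, 14.3 and 21.7 CPM in NanogKO:Esrrb:Nanog, 10.49, 14.3 and 9.27 in NanogKO:Esrrb, against 1.80, 1.62 and 2.21 in NanogKO. Its NanogKO:Esrrb:Nanog libraries met the NanogKO:Esrrb libraries at their lower end and stood clear of NanogKO, by 3.30 ± 0.18 (SE) log2 units (adjusted p = 2e-13). Beyond 500 kb, chr4:69626421-69627172, 589683 bp from the centrosome gene Cdk5rap2, had 15.7, 15.9 and 22.999 CPM in NanogKO:Esrrb:Nanog, 8.92, 10.45 and 9.19 in NanogKO:Esrrb, against 3.54, 2.48 and 2.78 in NanogKO. The 3 groups did not overlap there, and the log2 change against NanogKO was 2.65 ± 0.17 (SE) (adjusted p = 1.2e-12). The rise at 50 to 100 kb, chr17:45823549-45823903 inside the lncRNA gene Gm35692, was 3.07 ± 0.18 (SE).

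The falls in the same comparison also had NanogKO:Esrrb between the other groups. The region chr1:161444740-161445183, 26534 bp from Tnfsf4, the gene of the OX40 ligand, had 1.37, 1.70 and 1.83 CPM in NanogKO:Esrrb:Nanog, 3.80, 4.15 and 5.97 in NanogKO:Esrrb, against 23.7, 24.2 and 19.9 in NanogKO. NanogKO:Esrrb libraries lay between the other groups without touching them, and the log2 change was -3.79 ± 0.18 (SE) against NanogKO (adjusted p = 1.9e-14) and -1.504 ± 0.18 (SE) against NanogKO:Esrrb (adjusted p = 2e-06). At 8236 bp from Hs6st1, a heparan sulfate sulfotransferase gene, chr1:36114682-36115306 had 2.92, 1.67 and 1.85 CPM in NanogKO:Esrrb:Nanog, 4.15, 6.38 and 5.08 in NanogKO:Esrrb, against 20.5, 22.5 and 17.5 in NanogKO. The order of the groups was the same, with a log2 change of -3.22 ± 0.19 (SE) against NanogKO (adjusted p = 3.4e-13). The region chr2:128265468-128265909, 102921 bp from Bcl2l11, the gene of the pro-apoptotic protein BIM, had 3.17, 3.76 and 4.62 CPM in NanogKO:Esrrb:Nanog, 8.70, 5.09 and 7.95 in NanogKO:Esrrb, against 23.02, 19.2 and 19.8 in NanogKO. Here too no library of one group reached another group, and the log2 change against NanogKO was -2.42 ± 0.17 (SE) (adjusted p = 1e-11). The falls near Tspan5 at 50 to 100 kb and near the semaphorin receptor gene Plxna2 beyond 500 kb were -2.42 ± 0.17 (SE) and -1.72 ± 0.17 (SE) on the log2 scale.

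**Figure D3:**
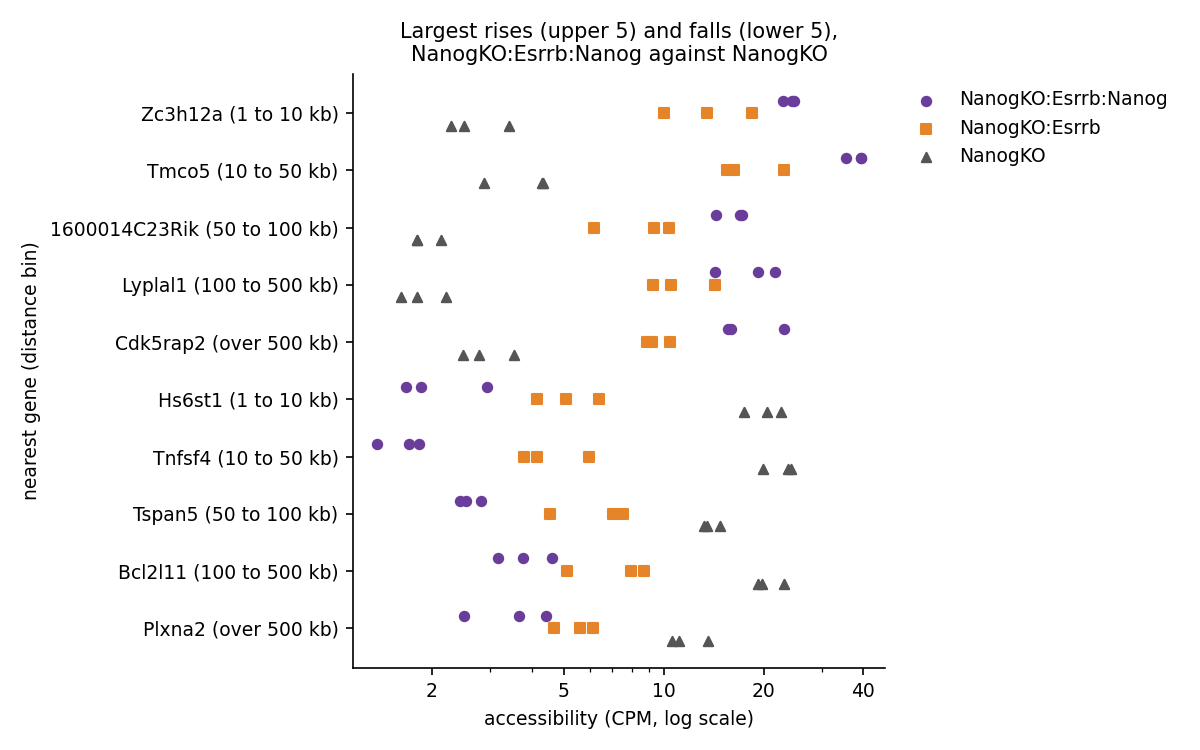
Accessibility in CPM, on a log scale, of the members with the largest rises (upper 5) and falls (lower 5) at each distance in NanogKO:Esrrb:Nanog against NanogKO; rows carry the nearest gene and every point is a library. NanogKO:Esrrb libraries lie between the NanogKO:Esrrb:Nanog and NanogKO libraries or touch the NanogKO:Esrrb:Nanog ones, as near Lyplal1.

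With Esrrb alone, the largest rise at each distance ran from 1.81 to 2.82 log2 units and the largest fall from -1.57 to -2.61. These regions were picked in the same way, so the separation of NanogKO:Esrrb from NanogKO and the small p were required by the choice. The region chr17:80800753-80801983, 71947 bp from the kinase gene Map4k3, had 41.9, 37.6 and 40.3 CPM in NanogKO:Esrrb:Nanog, 33.1, 32.3 and 29.2 in NanogKO:Esrrb, against 4.83, 4.46 and 5.66 in NanogKO. Both groups with Esrrb were far above NanogKO, and the log2 change in NanogKO:Esrrb against NanogKO was 2.66 ± 0.12 (SE) (adjusted p = 9e-14). Near Macf1, the gene of a protein that links actin and microtubules, chr4:123690186-123690833 at 2384 bp had 25.6, 21.2 and 22.5 CPM in NanogKO:Esrrb:Nanog, 26.9, 27.05 and 24.1 in NanogKO:Esrrb, against 3.73, 3.69 and 4.83 in NanogKO. Its groups with Esrrb met each other, the difference between them was -0.17 ± 0.12 (SE) log2 units (adjusted p = 0.3), and the change against NanogKO was 2.67 ± 0.13 (SE) (adjusted p = 3.4e-13). The region chr12:20844786-20845709, 174095 bp from LOC108167368, had 17.6, 15.5 and 20.8 CPM in NanogKO:Esrrb:Nanog, 25.6, 26.98 and 24.3 in NanogKO:Esrrb, against 3.54, 3.69 and 3.67 in NanogKO. NanogKO:Esrrb libraries were the highest there, with a log2 change of 2.82 ± 0.13 (SE) against NanogKO (adjusted p = 9e-14), and NanogKO:Esrrb:Nanog libraries were lower than them by a log2 difference of -0.51 ± 0.12 (SE) (adjusted p = 0.0033). The rises near B4galnt1, a ganglioside synthase gene, and near Pou3f3, the gene of a neural POU factor, at 636878 bp, were 2.54 ± 0.15 (SE) and 1.81 ± 0.20 (SE). Among the falls, chr17:31033291-31033996 at 22581 bp from Umodl1 had 4.23, 3.70 and 3.77 CPM in NanogKO:Esrrb:Nanog, 3.78, 1.84 and 3.69 in NanogKO:Esrrb, against 21.8, 17.9 and 16.8 in NanogKO. The 6 libraries with Esrrb were all low and intermixed, and the log2 change was -2.61 ± 0.19 (SE) (adjusted p = 4.5e-11). The region chr3:88590183-88591017, 1763 bp from Ssr2, a gene of the protein translocation machinery of the endoplasmic reticulum, had 9.33, 7.54 and 12.2 CPM in NanogKO:Esrrb:Nanog, 8.78, 7.30 and 9.55 in NanogKO:Esrrb, against 33.4, 31.97 and 35.5 in NanogKO. NanogKO libraries stood alone at the top, with a log2 change of -1.98 ± 0.14 (SE) (adjusted p = 6.2e-11). Falls near Fggy, Arl4c and Ncam2 were -2.01 ± 0.17 (SE), -1.76 ± 0.18 (SE) and -1.57 ± 0.16 (SE), the last 972230 bp from its gene.

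Other members changed where Nanog was added to Esrrb. The same choice was made here, so the separation of NanogKO:Esrrb:Nanog from NanogKO:Esrrb and the small p were required by it. The region chr12:37080044-37080501, 28039 bp from the mesoderm homeobox gene Meox2, had 15.1, 16.2 and 21.96 CPM in NanogKO:Esrrb:Nanog, 4.11, 5.06 and 4.001 in NanogKO:Esrrb, against 3.29, 1.91 and 2.25 in NanogKO. NanogKO:Esrrb:Nanog libraries stood far above the rest, with a log2 change against NanogKO:Esrrb of 2.02 ± 0.17 (SE) (adjusted p = 1.3e-08). The member chr13:47855203-47856292, 404824 bp from Id4, an inhibitor of basic helix-loop-helix factors, and holding the start of Gm52029 printed above, had 22.7, 23.8 and 26.5 CPM in NanogKO:Esrrb:Nanog, 7.05, 9.21 and 7.69 in NanogKO:Esrrb, against 6.66, 7.40 and 5.47 in NanogKO. NanogKO:Esrrb and NanogKO libraries overlapped and differed by 0.29 ± 0.14 (SE) log2 units (adjusted p = 0.096), whereas the change with Nanog was 1.61 ± 0.13 (SE) (adjusted p = 1e-08). Near Aym1 and Prex2, NanogKO:Esrrb was the extreme group, and its libraries enter both comparisons given. The region chr5:113420514-113420987, 62693 bp from Aym1, had 15.9, 12.4 and 16.4 CPM in NanogKO:Esrrb:Nanog, 4.73, 3.58 and 3.15 in NanogKO:Esrrb, against 10.3, 7.16 and 8.70 in NanogKO. It was lowest in NanogKO:Esrrb, with a log2 change of -1.19 ± 0.16 (SE) for NanogKO:Esrrb against NanogKO and 1.97 ± 0.16 (SE) for NanogKO:Esrrb:Nanog against NanogKO:Esrrb (adjusted p = 2e-06 and 1e-08). Near Prex2, the gene of an exchange factor for Rac, chr1:10933042-10934243 had 2.07, 3.64 and 4.31 CPM in NanogKO:Esrrb:Nanog, 7.37, 8.21 and 10.7 in NanogKO:Esrrb, against 3.83, 4.04 and 4.46 in NanogKO. It was highest in NanogKO:Esrrb, by 1.09 ± 0.19 (SE) log2 units against NanogKO, and changed by -1.39 ± 0.20 (SE) in NanogKO:Esrrb:Nanog against NanogKO:Esrrb (adjusted p = 5.8e-05 and 1.9e-05). The rises near the casein gene Csn1s2a and near Celf4, 1971777 bp away, were 1.86 ± 0.17 (SE) and 1.23 ± 0.15 (SE), and the falls near Ralgapa2, Zfyve1 and Slitrk5 were -1.62 ± 0.17 (SE), -1.65 ± 0.19 (SE) and -1.26 ± 0.24 (SE).

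A long member, chr9:3022474-3025774 with 3301 bp, had the largest fall at 100 to 500 kb in NanogKO:Esrrb:Nanog against NanogKO:Esrrb. It lies 309457 bp from Alkbh8, a tRNA methyltransferase gene, close to the start of the assembled chromosome, and had 8.34, 2.64 and 13.2 CPM in NanogKO:Esrrb:Nanog, 43.1, 28.2 and 24.8 in NanogKO:Esrrb, against 45.7, 35.8 and 22.9 in NanogKO. The NanogKO:Esrrb:Nanog libraries were far apart but all below the other 6, with a log2 change of -1.96 ± 0.30 (SE) (adjusted p = 4.3e-05). Per length, the highest member at 1 to 10 kb, chr16:17222265-17222511 near Rimbp3, averaged 215 CPM per kb in NanogKO:Esrrb:Nanog, 200 in NanogKO:Esrrb and 161 in NanogKO. Beyond 500 kb the highest, chr13:3037111-3037396, 500679 bp from Gdi2, averaged 62.3 CPM per kb in NanogKO:Esrrb:Nanog, 75.1 in NanogKO:Esrrb and 100 in NanogKO. Whether reads that align at several places add to such regions was not tested. The member farthest from any protein-coding gene, chr18:28015527-28015936, lies 2249679 bp from Pik3c3 and 13839 bp from the lncRNA gene Gm33805, and had 1.56, 1.26 and 1.71 CPM in NanogKO:Esrrb:Nanog, 3.04, 1.83 and 2.73 in NanogKO:Esrrb, against 3.12, 3.91 and 2.05 in NanogKO. Its libraries with Nanog were lower than those of NanogKO, with a log2 change of -0.99 ± 0.24 (SE) (adjusted p = 0.0012). The other 2 members most remote from protein-coding genes, chr18:28077326-28078259 and chr14:82290895-82291264, had log2 changes of -0.31 ± 0.12 (SE) and -0.35 ± 0.24 (SE) in the same comparison, the second with an adjusted p of 0.23. Among abundant members the one most alike across conditions was chr1:179645538-179646141 near Cnst, with 17.5, 15.6 and 18.4 CPM in NanogKO:Esrrb:Nanog, 16.6, 18.5 and 16.2 in NanogKO:Esrrb, against 18.1, 16.3 and 16.97 in NanogKO. Its groups overlapped throughout, and the difference between NanogKO:Esrrb:Nanog and NanogKO was 0.01 log2 units with an SE of 0.12. At the 1 kb limit, the nearest member, 1001 bp from Elof1, averaged 3.79, 4.12 and 4.65 CPM in NanogKO:Esrrb:Nanog, NanogKO:Esrrb and NanogKO, and the shared region just outside the limit, 1000 bp from Mettl24, 3.58, 4.68 and 8.04 CPM.

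LIF in the medium drives the LIF and STAT3 response. Members nearest to genes of that pathway were more often higher than lower with the added factors. They lay nearest to 11 genes, and here as for the lists below, members near the same gene are not independent replicates. Of 74 such members, 42 were higher and 9 lower in NanogKO:Esrrb:Nanog against NanogKO (56.8% and 12.2%, beside 24.9% and 24.4% of all regions), and their median log2 fold change was 0.51, beside -0.03 over all members. In NanogKO:Esrrb against NanogKO, 31 were higher and 8 lower (41.9% and 10.8%, beside 20% and 17% of all regions), with a median of 0.25. Against NanogKO:Esrrb, 24 were higher and 7 lower (32.4% and 9.46%, beside 12.6% and 12% of all regions), with a median of 0.20. That median was 0.09 with library totals and 0.12 with a loess offset; under 4 other scalings the counts ran from 18 to 25 higher and from 7 to 11 lower. Klf5, a Krüppel-like factor that serves self-renewal, is on this list and on that of naive pluripotency, and chr14:99324281-99325180, 10869 bp from it, had 54.04, 51.4 and 54.9 CPM in NanogKO:Esrrb:Nanog, 39.2, 43.2 and 35.4 in NanogKO:Esrrb, against 11.7, 13.2 and 13.7 in NanogKO. The groups did not overlap, with a log2 change of 2.05 ± 0.12 (SE) in NanogKO:Esrrb:Nanog against NanogKO (adjusted p = 2.4e-13) and 1.61 ± 0.12 (SE) in NanogKO:Esrrb against NanogKO (adjusted p = 4.7e-11). Near Pim1, a kinase gene that STAT3 activates, chr17:29436819-29437459 inside the lncRNA gene Gm36199 had 25.5, 26.2 and 19.3 CPM in NanogKO:Esrrb:Nanog, 12.9, 14.9 and 12.5 in NanogKO:Esrrb, against 15.4, 14.3 and 14.3 in NanogKO. NanogKO:Esrrb and NanogKO overlapped there, and NanogKO:Esrrb:Nanog was above both, by 0.81 ± 0.13 (SE) log2 units against NanogKO:Esrrb (adjusted p = 5.7e-05).

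Near genes of naive pluripotency, the state before implantation, 81 of 210 members were higher and 45 lower in NanogKO:Esrrb:Nanog against NanogKO (38.6% and 21.4%, beside 24.9% and 24.4% of all regions). With Esrrb alone against NanogKO, 72 were higher and 33 lower (34.3% and 15.7%, beside 20% and 17% of all regions). Against NanogKO:Esrrb, NanogKO:Esrrb:Nanog had 35 members higher and 28 lower (16.7% and 13.3%, beside 12.6% and 12% of all regions), and the order turned to 22 higher and 40 lower with library totals. The region chr3:34745145-34745491, 92684 bp from the pluripotency gene Sox2, had 20.1, 19.5 and 19.8 CPM in NanogKO:Esrrb:Nanog, 9.60, 8.51 and 8.59 in NanogKO:Esrrb, against 9.88, 10.8 and 9.53 in NanogKO. All 3 NanogKO:Esrrb:Nanog libraries stood well above the other 6, with a log2 change of 1.15 ± 0.12 (SE) against NanogKO:Esrrb (adjusted p = 2.6e-07). Of 127 members near genes of general pluripotency, 57 were higher and 23 lower in NanogKO:Esrrb:Nanog against NanogKO (44.9% and 18.1%, beside 24.9% and 24.4% of all regions). The member near Sall1, a zinc finger factor gene, chr8:89166920-89167569 at 122758 bp, had 17.6, 15.8 and 18.7 CPM in NanogKO:Esrrb:Nanog, 12.6, 12.02 and 9.55 in NanogKO:Esrrb, against 3.15, 2.57 and 3.30 in NanogKO. The 3 groups did not overlap, and NanogKO:Esrrb:Nanog was higher by 2.53 ± 0.15 (SE) log2 units against NanogKO (adjusted p = 3.9e-13). Near formative and primed genes, which mark the later states, 20 of 132 members were higher and 42 lower in NanogKO:Esrrb against NanogKO (15.2% and 31.8%, beside 20% and 17% of all regions). In NanogKO:Esrrb:Nanog against NanogKO the counts were 24 and 39 (18.2% and 29.5%, beside 24.9% and 24.4% of all regions). Near Grhl2, a factor of epithelial enhancers, chr15:37198020-37198576 had 3.34, 3.52 and 4.34 CPM in NanogKO:Esrrb:Nanog, 2.64, 3.58 and 3.69 in NanogKO:Esrrb, against 10.4, 11.5 and 10.6 in NanogKO. Its 6 libraries with Esrrb were low and intermixed, and the log2 change in NanogKO:Esrrb against NanogKO was -1.71 ± 0.16 (SE) (adjusted p = 3.5e-09). Against NanogKO:Esrrb, 18 were higher and 13 lower in NanogKO:Esrrb:Nanog (13.6% and 9.85%, beside 12.6% and 12% of all regions), and 13 and 17 with library totals. Near the formative POU factor gene Pou3f1, chr4:124631577-124631830 had 5.83, 6.98 and 5.22 CPM in NanogKO:Esrrb:Nanog, 2.40, 1.74 and 2.21 in NanogKO:Esrrb, against 3.71, 3.49 and 3.41 in NanogKO. It was lowest in NanogKO:Esrrb, and the log2 change in NanogKO:Esrrb:Nanog against NanogKO:Esrrb was 1.501 ± 0.18 (SE) (adjusted p = 1.8e-06).

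Genes that ERK signalling, the pathway of fibroblast growth factors, induces as its own brakes had 56 of 165 members higher and 23 lower in NanogKO:Esrrb:Nanog against NanogKO (33.9% and 13.9%, beside 24.9% and 24.4% of all regions). In NanogKO:Esrrb against NanogKO, 46 were higher and 24 lower (27.9% and 14.5%, beside 20% and 17% of all regions). Near Dusp6, the gene of an ERK phosphatase, chr10:99298483-99299531 had 16.4, 18.5 and 20.2 CPM in NanogKO:Esrrb:Nanog, 24.6, 25.2 and 20.8 in NanogKO:Esrrb, against 7.32, 8.54 and 7.22 in NanogKO. NanogKO:Esrrb libraries were the highest and NanogKO libraries the lowest, with a log2 change of 1.61 ± 0.13 (SE) between them (adjusted p = 2.4e-10). Near Phlda1, chr10:111672643-111673079 went the other way, with 6.39, 5.75 and 5.34 CPM in NanogKO:Esrrb:Nanog, 5.41, 6.26 and 6.02 in NanogKO:Esrrb, against 16.4, 16.6 and 16.4 in NanogKO. All libraries with Esrrb were low, and the log2 change was -1.499 ± 0.13 (SE) in NanogKO:Esrrb:Nanog against NanogKO (adjusted p = 3.8e-10). Near Spry4, an inhibitor of receptor signalling, chr18:38570431-38570610 rose by 1.30 ± 0.18 (SE) log2 units in NanogKO:Esrrb:Nanog against NanogKO:Esrrb (adjusted p = 1.3e-05). For NanogKO:Esrrb:Nanog against NanogKO, where 24.9% and 24.4% of all regions were called higher and lower, 13 of 69 members were higher and 12 lower near primitive endoderm genes (18.8% and 17.4%) and 4 of 42 members were higher and 8 lower near mesendoderm genes (9.52% and 19.05%). In the same comparison 29 of 110 members were higher and 26 lower near neural genes (26.4% and 23.6%) and 26 of 87 members were higher and 19 lower near trophoblast genes (29.9% and 21.8%). The order of several of these counts turned with the scaling: with library totals they were 11 higher and 13 lower near primitive endoderm genes, 21 higher and 38 lower near neural genes and 24 of each near trophoblast genes, and with a loess offset 11 and 13 near primitive endoderm genes and 24 and 32 near neural genes. Near Pdgfra, the gene of the receptor the cells were sorted against, chr5:75210009-75210423 had 13.1, 9.04 and 12.1 CPM in NanogKO:Esrrb:Nanog, 6.995, 7.65 and 5.38 in NanogKO:Esrrb, against 3.07, 2.87 and 2.66 in NanogKO. NanogKO:Esrrb:Nanog was highest and NanogKO lowest without overlap, by 2.000 ± 0.17 (SE) log2 units (adjusted p = 2e-10). Near Tfap2a, a gene of a trophoblast and neural crest factor, chr13:40756242-40756832 changed by 2.47 ± 0.18 (SE) log2 units in that comparison (adjusted p = 1e-11). Genes marking fibroblasts had 3 of 30 members higher and 10 lower (10% and 33.3%) in that comparison, among them the octamer-bearing region near Fn1, with 5.95, 5.69 and 4.70 CPM in NanogKO:Esrrb:Nanog, 6.04, 4.30 and 4.80 in NanogKO:Esrrb, against 14.1, 15.4 and 15.996 in NanogKO. Its libraries with Esrrb were all below those of NanogKO, by a log2 change of -1.59 ± 0.15 (SE) in NanogKO:Esrrb against NanogKO (adjusted p = 2.9e-09). Near housekeeping genes, 17 of 46 members were higher and 15 lower (36.96% and 32.6%), an order that turned to 13 and 15 with library totals and with a loess offset. The region chr5:142920768-142921089, 12792 bp from the actin gene Actb, changed by 2.36 ± 0.16 (SE) log2 units (adjusted p = 2.8e-12).

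Neighbouring members at most 1 kb apart mostly changed the same way where both were called, and the share was lower at wider gaps. Of 787 pairs of neighbours at most 1 kb apart that were both called in NanogKO:Esrrb:Nanog against NanogKO, 86.4% changed the same way, and of 1348 pairs 100 to 500 kb apart, 57.6%. Between NanogKO:Esrrb:Nanog and NanogKO:Esrrb the shares were 90.7% of 216 and 60.2% of 319 pairs, and in NanogKO:Esrrb against NanogKO 94.1% of 540 and 60.1% of 696. Over all pairs at most 1 kb apart, Pearson's r of the log2 fold changes across regions was 0.492, 0.369 and 0.589 in the same order (n = 2818 pairs). Neighbours share their libraries, are not independent replicates, and close ones can be parts of 1 open region. In NanogKO:Esrrb:Nanog against NanogKO, 24.7% of members were higher and 24% lower, so unrelated called pairs would often match too. Their share was not computed, so the values at 100 to 500 kb are not read as joint change.

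**Figure D4:**
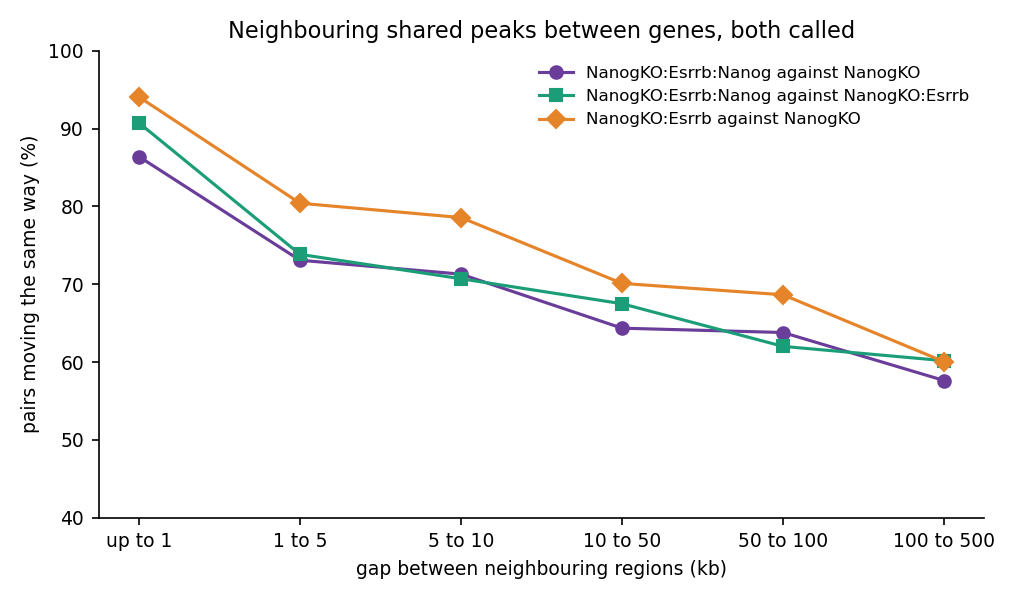
Percent of neighbouring shared peaks between genes that changed in the same direction, among pairs both called, against the gap between them in kb; each line is a comparison. The share is 94.1% for gaps up to 1 kb in NanogKO:Esrrb against NanogKO and 60.1% at 100 to 500 kb.

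Chained over gaps of at most 12.5 kb, the members formed 18789 stretches, of which 12035 were single regions, 1002 held at least 5 and 123 at least 10. The stretches named here were chosen after their values were seen. The one with the most members (33), chr18:82703659-82881534, lies between the zinc finger genes Zfp236 and Zfp516; 23 were higher and 0 lower in NanogKO:Esrrb:Nanog against NanogKO, 13 and 1 against NanogKO:Esrrb, and 15 and 0 in NanogKO:Esrrb against NanogKO. Around Socs3, the STAT3-induced feedback inhibitor of LIF signalling, and Tha1, 18 members spanned chr11:117878325-117976533. Against NanogKO, 12 of them were higher and 0 lower in NanogKO:Esrrb:Nanog, against NanogKO:Esrrb 10 and 0, and in NanogKO:Esrrb against NanogKO 7 and 2. For both stretches, the shares of all regions higher and lower were 24.9% and 24.4%, 12.6% and 12%, and 20% and 17%, in that order of comparisons. The member chr11:117934032-117934830, 31249 bp from Socs3, had 41.6, 36.6 and 30.002 CPM in NanogKO:Esrrb:Nanog, 21.8, 21.7 and 16.9 in NanogKO:Esrrb, against 15.3, 12.6 and 14.7 in NanogKO. Its 3 groups did not overlap, with log2 changes of 1.34 ± 0.13 (SE) against NanogKO (adjusted p = 3.7e-09) and 0.84 ± 0.13 (SE) against NanogKO:Esrrb (adjusted p = 5.9e-05). Nearer the start of the stretch, chr11:117888057-117888549, 14531 bp from Tha1, had 16.7, 14.4 and 16.03 CPM in NanogKO:Esrrb:Nanog, 8.15, 14.2 and 5.45 in NanogKO:Esrrb, against 2.63, 2.28 and 2.80 in NanogKO. NanogKO:Esrrb replicate 2 came near the NanogKO:Esrrb:Nanog libraries there, all NanogKO libraries were low, and the log2 change against NanogKO was 2.61 ± 0.22 (SE) (adjusted p = 2.5e-10).

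**Figure D5:**
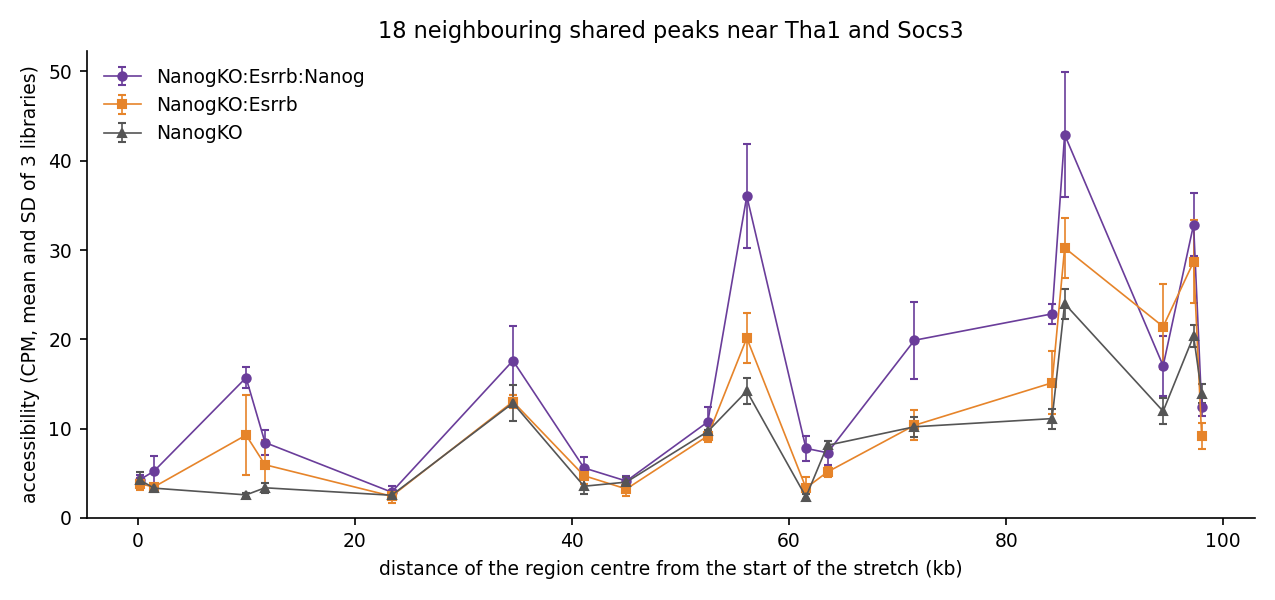
Accessibility in CPM (mean and SD of 3 libraries) of the 18 neighbouring members near Tha1 and Socs3, placed by the distance of their centres in kb from the start of the stretch. NanogKO:Esrrb:Nanog is highest at most of them, with a mean of 36.04 CPM at the member 31249 bp from Socs3, against 20.1 in NanogKO:Esrrb and 14.2 in NanogKO.

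Klf4 is a Krüppel-like pluripotency factor gene known to be controlled by distal enhancers in mouse ES cells. Near it, all 5 members of chr4:55463853-55481312 were called higher against NanogKO with Esrrb alone (20% of all regions) and with both factors (24.9%). The longest of them, chr4:55477219-55478474, 48663 bp from Klf4, had 40.2, 36.3 and 42.99 CPM in NanogKO:Esrrb:Nanog, 28.9, 39.02 and 25.6 in NanogKO:Esrrb, against 11.9, 11.6 and 12.3 in NanogKO. No library with Esrrb reached down to the NanogKO libraries, and the log2 changes against NanogKO were 1.74 ± 0.13 (SE) for NanogKO:Esrrb:Nanog (adjusted p = 4.6e-11) and 1.38 ± 0.13 (SE) for NanogKO:Esrrb (adjusted p = 7.1e-09). Near Kank4, all 8 members of chr4:98840461-98865960 were higher in NanogKO:Esrrb against NanogKO, with a median log2 change of 1.45. That stretch was picked for the largest median rise in this comparison, where 20% of all regions were higher. Neighbouring falls were seen near the vomeronasal receptor gene Vmn1r223 and Zfp322a. There 8 of 10 members were lower in NanogKO:Esrrb:Nanog against NanogKO:Esrrb, beside 12% of all regions. Near Dynlt1b, 4 of 7 were lower and 1 higher in NanogKO:Esrrb:Nanog against NanogKO, beside 24.4% and 24.9% of all regions. Each stretch was picked for the largest median fall in its comparison, so its count follows in part from that choice. By nearest gene, the members belonged to 10167 genes with a median of 2 members each, and 18 genes had 30 or more. Enc1, which encodes a Kelch protein of the nervous system, had the most (49), of which 24 were higher and 6 lower in NanogKO:Esrrb:Nanog against NanogKO (48.98% and 12.2%, beside 24.9% and 24.4% of all regions). Sox2 followed with 46, of which 9 were higher and 12 lower (19.6% and 26.1%), shares near those of all regions. Myc had 39, with 13 higher and 4 lower (33.3% and 10.3%). Jarid2, the gene of a cofactor of Polycomb complex PRC2, had 38 members, of which 16 were higher and 0 lower (42.1% and 0.000%), and the lowest log2 fold change among them was -0.15.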

How the data were processed

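The table of counts deposited by the authors gives, for each region and each of 9 ATAC-seq libraries, a whole number of reads with no normalization. The 3 deposited peak lists gave 1 interval list per group, with MACS2 peak names; the score beside each peak is the authors' own and was not used. Per the submitters' processing notes the build was mm10 and the tools, with no role stated, were MACS2 2.2.0 and bedtools 2.26.0, the aligner Bowtie2 with cutadapt, and bcl2fastq 2.19.1, deepTools 4.4.0 and SAMtools 1.4.1. The counting tool, any shift of reads for the transposase and any duplicate or mapping filter are not given in the sources used here; each can move the level of a region. Because the counted regions were built from peaks of these libraries, regions without a peak carry no value. Coordinates are counted from 1.

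Members were chosen on those intervals and on RefSeq gene spans of GRCm38, with annotation rows starting below 3 Mb left out since they lie on scaffolds. The members, the gene lists and the tests were chosen with earlier results of these data known. Counts of all 9 libraries were fitted together with edgeR 4.0.16 (quasi-likelihood test, TMM factors, filterByExpr) under R 4.3.3. Of 157497 regions, 157439 were tested. A prior count of 2 was set only for log2 CPM, used for abundance and SDs. Adjusted p-values are Benjamini-Hochberg values over all tested regions of a comparison, called under 0.05, with 6 residual degrees of freedom. SE is the log2 fold change divided by the square root of F. The fit was also run on simulated data with 200 changed regions. That is a far smaller share than was called in the data, so the run could not check the scaling at such shares. CPM are TMM-scaled. No intervals for counting error are given, and some regions are shown only by group means or log2 changes.

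Named regions are, for each comparison and distance group, the called member with the largest rise and fall among members at or above median abundance with groups that did not overlap; the highest member per length in each distance group; the 3 farthest members; for each of 11 gene lists, the member of smallest p in each comparison; the 3 members most alike across conditions within the top 10% by abundance; and the regions on either side of the 1 kb limit. Not every named region is printed. Stretches and the genes with most members were picked after their values were seen.

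No genome sequence was used. A planned motif search over whole members was therefore replaced by a search of the RefSeq windows of lncRNA starts inside members, for 7 motifs on both strands. Replicate numbers come from the labels. Deviations from the group means of same-numbered libraries had r of 0.117 to 0.152 for NanogKO:Esrrb and NanogKO. The r was 0.105 to 0.146 for NanogKO:Esrrb:Nanog and NanogKO:Esrrb, and 0.00220 to 0.136 for NanogKO:Esrrb:Nanog and NanogKO. The reported fits did not pair libraries by number, and a replicate block was run as an alternative. Alternatives were DESeq2 1.42.0 (Wald test and its size factors), library totals, a loess offset, no filter, only the groups compared, a replicate block, each library left out, other rules for membership and a threshold of 0.01. Python 3.11.15, pandas 2.3.3 and scipy 1.17.1 were used for the rest.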

Additional observations from a re-analysis of the deposited data

How the results depend on the processing

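All 61 results for single named regions kept their direction and their side of the threshold in 976 recomputed values, each 1 result under 1 alternative fit. These regions were picked for large changes or small p in the same data, so that outcome was nearly fixed in advance. Of 189 recomputed counts of members, 18 moved past 1.5 times the value reported. Requiring at least 50% cover by each list gave 6362 called (3966 higher, 2396 lower) in NanogKO:Esrrb against NanogKO, 8608 called with 2688 lower in NanogKO:Esrrb:Nanog against NanogKO, and 4622 called with 1064 lower against NanogKO:Esrrb; fewer members enter by construction. With library totals 2879 were higher in the last comparison, and the median of all regions shifted by -0.10 there. At adjusted p under 0.01, 3037 were lower in NanogKO:Esrrb against NanogKO, and 4329 were called (2467 higher, 1862 lower) in NanogKO:Esrrb:Nanog against NanogKO:Esrrb. The NanogKO and NanogKO:Esrrb lists alone, chosen after seeing the data, gave 6812 lower in that comparison.

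With 1 library left out, NanogKO:Esrrb:Nanog against NanogKO:Esrrb had 5546 to 10349 members called, 2841 to 4944 higher and 2477 to 5405 lower. The count called was 5546 and the count higher 2841 without NanogKO:Esrrb replicate 3. The count lower was 2685 without NanogKO:Esrrb replicate 1, 2599 without NanogKO:Esrrb:Nanog replicate 1 and 2477 without NanogKO:Esrrb:Nanog replicate 2. The share of library counts, NanogKO:Esrrb:Nanog minus NanogKO, ran from -0.297 to 0.533 percentage points and was -0.492 under those 2 lists; minus NanogKO:Esrrb it was 0.377 at 50% cover. The share beyond 100 kb, NanogKO:Esrrb minus NanogKO, ran from -0.175 to 0.144 (0.144 without NanogKO replicate 2, 0.0701 without NanogKO:Esrrb replicate 1) and was 0.0202 at 50% cover; NanogKO:Esrrb:Nanog minus NanogKO:Esrrb, it ran from -0.749 to 0.0315 (the highest without NanogKO:Esrrb:Nanog replicate 1). The causes were not tested.

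With a replicate block, the counts called were 13029 in NanogKO:Esrrb against NanogKO, 17340 in NanogKO:Esrrb:Nanog against NanogKO and 9892 in NanogKO:Esrrb:Nanog against NanogKO:Esrrb, and no named call changed. Every member had at least 8 counts in each library.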
